A study of Mus musculus with 26 samples.

Results

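The mitochondrial ribosomal protein genes were followed through mouse oocytes and early embryos. They were taken as every symbol in the 3 deposited tables that consists of Mrpl or Mrps, a number and at most 1 further letter, which gave 77 of 24412 symbols, 48 named Mrpl and 29 named Mrps. By the structure of the mammalian ribosome, 50 of the 77 belong to the large subunit and 26 to the small subunit. Mrps18a and Mrps30 are counted with the large subunit, where their proteins sit in spite of their names. Mrps36 is kept because the rule takes it, but its protein is a component of the 2-oxoglutarate dehydrogenase complex and not of the ribosome. Of the large-subunit members 30 have a bacterial counterpart and 20 are specific to mitochondria, and of the small-subunit members 16 have a counterpart and 10 are specific to mitochondria.

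Mitochondrial ribosomes translate the few mRNAs that the mitochondrial genome encodes, all of them for subunits of the respiratory chain and ATP synthase. Every protein of these ribosomes is encoded in the nucleus, made in the cytosol and imported. In the mouse the oocyte passes its mitochondria and a store of mRNA to the embryo, most of that mRNA is cleared around the 2-cell stage, and the embryonic genome is switched on in a minor and then a major wave.

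The series concerns the removal of dimethylation from histone H3 lysine 9 and minor genome activation. Maternal double-knockout embryos, called mDKO here, came from Zp3-Cre; Kdm3a f/f; Kdm3b f/f females of the C57BL/6J strain, in which Cre acts in growing oocytes, and from fertilization in vitro with wild-type sperm. KDM3A and KDM3B, the deleted proteins, are demethylases of H3K9. The sources used here do not give the alleles that control females carried. Without injection, mDKO and control groups were profiled as MII oocytes, as embryos at the early 2-cell stage (E2C) and as embryos at the late 2-cell stage (L2C). The titles of the knockout L2C libraries read DKO where those at MII and E2C read mDKO, and they are taken here as the same genotype. A second experiment had mDKO E2C embryos injected with Kdm3aWT, Kdm3aHA or mCherry, and control E2C embryos injected with mCherry. A further experiment had wild-type 4-cell embryos (4C) injected with Kdm3aWT, Kdm3aHA or mCherry. The sources used here do not say what HA stands for in the second construct. Each of the 13 groups has 2 libraries, each made from a pool of 12 to 20 embryos (20 at L2C), so that fewer embryos of a kind and less RNA per embryo cannot be told apart.

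Values are TPM, transcript abundances scaled for transcript length and to an equal total per library, so levels can be set side by side between genes. They keep no read depth. Between 7649 and 12396 genes reached 1 TPM in a library, and 70 to 77 of the members did so. Kdm3a was at 0.725 and 0.718 TPM in mDKO and at 8.08 and 8.83 TPM in control MII oocytes, and in uninjected E2C embryos it was at 0.642 and 0.557 TPM in mDKO and 2.59 and 2.07 TPM in control. Kdm3b was at 1.75 and 1.87 TPM in mDKO and at 26.6 and 25.0 TPM in control MII oocytes. At L2C Kdm3a was at 28.4 and 26.3 TPM in mDKO and 34.1 and 43.8 TPM in control embryos. Which exons were deleted is not stated in the labels. Differences below are log2 fold changes on the log2(TPM + 1) scale with their standard errors, n = 2 libraries per group. A member was called higher or lower where the limma p-value, adjusted over all genes tested, was under 0.05. With 2 libraries against 2 an exact permutation test could not go below 0.333, and nothing in the labels says that the pools came from separate matings, so these p-values measure the spread between pools.

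The members together took a small share of the transcriptome, and that share differed between stages. Their summed TPM was 0.196% to 0.205% of the total in the 4 MII libraries and 0.721% to 0.763% in the 4 uninjected E2C libraries. At L2C the members held 0.605% and 0.621% in mDKO embryos, against 0.787% and 0.866% in control embryos, and those ranges did not overlap. The 8 injected E2C libraries held 0.485% to 0.659%. In the 6 4C libraries the share was 1.38% to 1.47% except in replicate 2 of mCherry, at 1.89%. The proteins of the cytosolic ribosome, by comparison, held 0.555% to 0.774% at MII and 0.479% to 0.668% in all E2C libraries. They reached 2.96% and 2.80% in mDKO L2C embryos against 6.75% and 6.55% in control L2C embryos, and 15.6% to 19.8% at 4C. Their share was thus about that of the mitochondrial set at E2C and far above it at 4C. The 4C values come from another experiment and the kits at MII and E2C differ, so these and stage cannot be told apart.

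**Figure D1:**
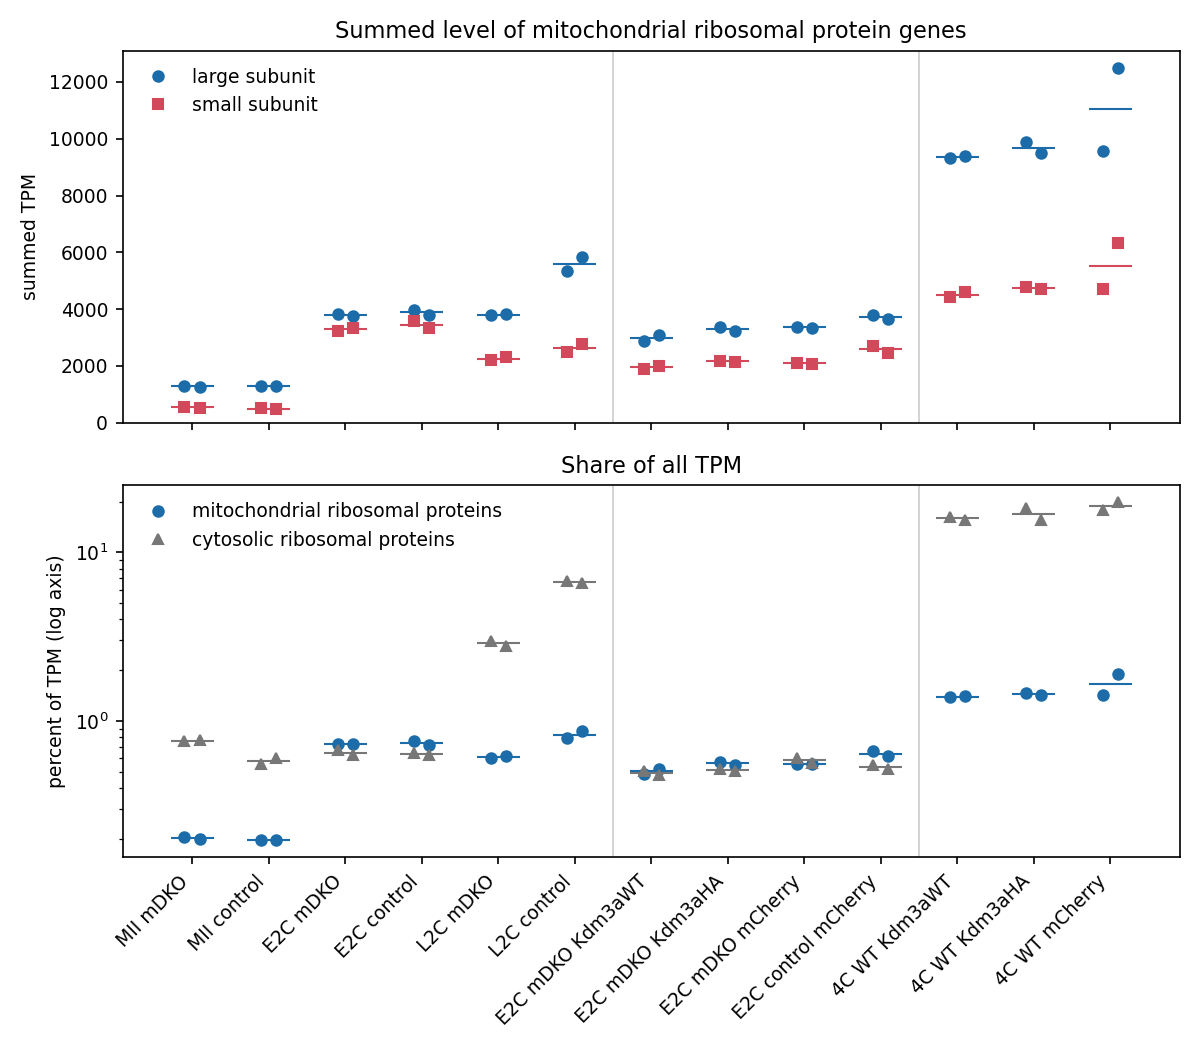
Upper panel: summed TPM of the large-subunit (circles) and small-subunit (squares) members in each library of the 13 groups, with a bar at the group mean. Lower panel: percent of all TPM held by the mitochondrial (circles) and cytosolic (triangles) ribosomal protein genes on a log axis. The mitochondrial share is higher at E2C than at MII and highest at 4C, and the cytosolic share is higher at L2C than at E2C.

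The 77 members did not share a single pattern. Over the 13 groups a member's highest group mean was 26.5 times its lowest at the median, over 10 times for 56 members and under 3 times for 2, Mrps23 and Mrpl32. Ranked by group mean, 48 were highest at 4C, 13 in an E2C group, 11 at L2C and 5 at MII. These ratios and ranks were not made over all genes, so they are not read as a trait of the members. They span separate experiments, injected and uninjected embryos and different kits. A lowest group mean near the floor also makes a ratio large. The highest levels over all groups belonged to Mrps33, Mrps21, Mrpl18, Mrpl22 and Mrpl48, and the lowest to Mrps5, Mrpl38, Mrpl11, Mrpl17 and Mrpl19. Mrps33, a small-subunit protein specific to mitochondria, was at 53.7 and 46.6 TPM in control oocytes at MII and, in control embryos, at 1169 and 1048 TPM at E2C and at 221 and 252 TPM at L2C. Mrps21, the counterpart of bacterial S21, stood at 33.8 and 41.4 TPM, 754 and 722 TPM and 335 and 357 TPM at those stages. Mrpl19 was at 0.344 and 0.439 TPM in control E2C embryos and between 9.65 and 22.4 TPM in the 6 4C libraries.

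Mrps33 and Mrps21 carried much of the small-subunit total at E2C. In the uninjected E2C libraries these genes made up 58.8% to 59.0% of the small-subunit TPM in mDKO and 53.2% to 53.9% in control embryos, against 17.4% to 20.7% at MII. The ratio of large-subunit to small-subunit TPM was 2.31 to 2.60 at MII, 1.11 to 1.18 in uninjected E2C embryos and 1.97 to 2.11 at 4C. At L2C the ratio was 1.72 and 1.65 in mDKO and 2.15 and 2.10 in control embryos. Without Mrps33 and Mrps21, left out because they are high at E2C, the ratio lay between 2.41 and 3.43 in all 26 libraries. It was then 2.88 and 2.72 in mDKO and 2.41 and 2.44 in control E2C embryos without injection, the control values being the lowest of all libraries.

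Between MII and E2C most members rose. In control embryos 61 of 77 rose (79.2% of members, 35.1% of all genes tested) and 7 fell (9.09%, against 37.0% of all genes). Their median log2 fold change was 1.69, beside 0.03 over all 14316 genes tested. Nuclear genes of the respiratory chain and ATP synthase did much the same, with 74.0% rising and 7.79% falling. Of cytosolic ribosomal protein genes 45.3% rose and 25.3% fell. By group, 26 of 30 large-subunit members with a bacterial counterpart rose, 14 of 20 specific to mitochondria, 13 of 16 small-subunit members with a counterpart and 8 of 10 specific to mitochondria. The kit was TruSeq Stranded mRNA at MII and of the SMART-Seq type at E2C, so that kit and stage cannot be told apart here. Size-factor scaling moved the median of all genes to 0.17 and that of the members to 1.92, with 63 members rising and 6 falling.

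Mrpl48, a large-subunit protein specific to mitochondria, was at 963 and 896 TPM in control E2C embryos and at 17.9 and 12.0 TPM in control MII oocytes. Its log2 fold change was 5.89 ± 0.27 (limma adjusted p = 6.13e-09). Mrpl48 lies on the minus strand of chromosome 7 (100545779 to 100608301 on GRCm38.p6) and shares exonic bases with Rab6a on the other strand. The sources used here do not give the strand setting of the authors' counting, so reads of such partners cannot be told apart. Mrps33 changed by 4.44 ± 0.12 and Mrpl55, a large-subunit protein, by 4.34 ± 0.25 (limma adjusted p = 3.74e-10 and 4.05e-08). The 7 members that fell were Mrps5, Mrpl39, Mrpl10, Mrps36, Mrpl44, Mrpl3 and Mrps9. Mrpl10, a protein of the stalk base on which translation factors dock, was at 42.2 and 44.1 TPM in control E2C embryos and 126 and 136 TPM in control MII oocytes, a change of -1.58 ± 0.15 (limma adjusted p = 2.16e-06). Mrps5 changed by -2.09 ± 0.30 and Mrpl39 by -1.61 ± 0.31.

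The members related to bacterial S18, Mrps18a, Mrps18b and Mrps18c, all rose in this interval. Mrps18c was at 89.0 and 66.2 TPM in control E2C embryos and 2.63 and 5.81 TPM in control MII oocytes. Mrps18b was at 149 and 150.1 TPM at E2C and 8.54 and 6.67 TPM at MII, and Mrps18a at 81.4 and 83.0 TPM at E2C and 5.64 and 4.29 TPM at MII. Their log2 fold changes were 3.97, 4.14 and 3.81, and all passed the test.

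Between E2C and L2C the members parted. In control embryos 34 of 77 rose (44.2%, against 35.5% of all genes tested) and 28 fell (36.4%, against 30.1%), with a median of 0.25 beside 0.02 over all genes. Among large-subunit members specific to mitochondria 14 of 20 rose and 4 fell. Among small-subunit members specific to mitochondria 3 of 10 rose and 6 fell. Of the members with a bacterial counterpart 11 of 30 rose and 10 fell in the large subunit, and 6 of 16 rose and 7 fell in the small subunit. Which kit was used at L2C is not given in the labels, so kit and stage cannot be told apart in this interval either, in control or mDKO embryos.

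Mrpl43, which is specific to mitochondria, was at 130.4 and 139 TPM at L2C and 4.45 and 5.48 TPM at E2C in control embryos, a change of 4.51 ± 0.20 (limma adjusted p = 1.24e-08). Its exons overlap those of Twnk, the gene of the mitochondrial DNA helicase, on the opposite strand. Mrpl20, the counterpart of a bacterial protein needed early in assembly of the large subunit, changed by 4.21 ± 0.22, and Mrpl49 by 4.20 ± 0.19. Mrpl12, a stalk protein that in human mitochondria also binds the mitochondrial RNA polymerase, was at 238 and 252 TPM at L2C and 17.9 and 24.02 TPM at E2C, a change of 3.50 ± 0.21. Mrpl41 changed by 3.62 ± 0.28. Mrps34, which in the mouse is needed for a stable small subunit, was at 19.3 and 22.6 TPM at L2C and 2.17 and 1.94 TPM at E2C, a change of 2.84 ± 0.27. In the other direction Mrps27, a pentatricopeptide repeat protein of the small subunit, was at 6.13 and 6.595 TPM at L2C and 60.7 and 60.6 TPM at E2C, a change of -3.07 ± 0.23. Mrps35 changed by -2.25 ± 0.24 and Mrps33 by -2.23 ± 0.12. All of these passed the test.

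The same interval in mDKO embryos, measured in other libraries, had 25 members rising (32.5%, against 31.9% of all genes) and 27 falling (35.1%, against 20.8%), with a median of -0.06 beside 0.10 over all genes. Mrpl41 (4.08 ± 0.28), Mrpl49 (3.77 ± 0.19) and Mrpl43 (3.52 ± 0.20) rose most by log2 fold change, and Mrps35 (-2.85 ± 0.24), Mrpl47 (-2.26 ± 0.18) and Mrps31 (-2.19 ± 0.20) fell most. Across the 77 members the stage change in mDKO embryos had a Pearson correlation of 0.898 (Spearman 0.908) with that in control embryos. Over all genes tested that Pearson correlation was 0.820. These correlations describe points that come from the same libraries and 1 fit. Of the members, 25 were called higher in both genotypes, 23 lower in both and 0 in opposite directions (32.5%, 29.9% and 0.0%). Over all 14316 genes these counts were 3722, 2414 (16.9%) and 210 (1.47%).

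**Figure D2:**
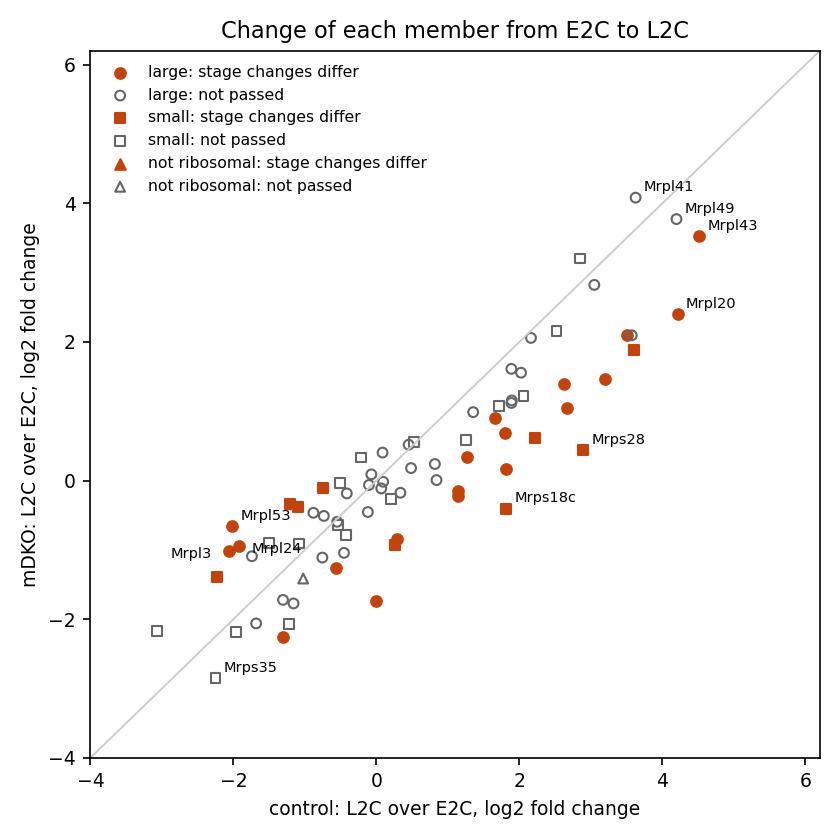
Log2 fold change of each member from E2C to L2C in mDKO (vertical) and control embryos (horizontal), with a line where they would be equal. Filled symbols are the members whose stage changes differed between genotypes at an adjusted p under 0.05. Mrps28 and Mrps18c lie well below the line, and Mrpl53 above it.

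In late 2-cell embryos the maternal knockout went with lower levels of many members. In mDKO L2C embryos 36 of 77 members were lower than in control (46.8%, against 23.3% of all 12606 genes tested) and 8 were higher (10.4%, against 19.1%). The median log2 fold change of the members was -0.47, beside 0.00 over all genes. Of the 36, 20 had a log2 fold change below -1, a count that was not made over all genes. Lower members came from every group, with 14 of 30 and 9 of 20 in the large subunit (bacterial counterpart and specific to mitochondria) and 9 of 16 and 4 of 10 in the small subunit.

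Among small-subunit members, Mrps18c was at 45.8 and 63.9 TPM in mDKO and at 253 and 291 TPM in control L2C embryos, a log2 fold change of -2.31 ± 0.18 (limma adjusted p = 0.000247). Its mDKO libraries both lay far below its control libraries. Mrps18c takes the place of bacterial S18 in the small subunit and lies on chromosome 5 (100798759 to 100804467, plus strand, GRCm38.p6). Mrps11, the counterpart of bacterial S11, stood at 15.7 and 17.9 TPM in mDKO and 70.3 and 70.0 TPM in control embryos (-2.002 ± 0.15, limma adjusted p = 0.00023). Mrps28, related to bacterial S1, stood at 35.4 and 32.1 TPM in mDKO and 115 and 133 TPM in control embryos (-1.84 ± 0.14, limma adjusted p = 0.000241). None of these libraries overlapped between genotypes. At L2C that was common, with 35.8% of all genes tested above control without overlap and 37.6% below. Of the paralogs of Mrps18c, Mrps18b was also lower, at 92.8 and 88.7 TPM in mDKO against 167 and 177 TPM in control embryos (-0.92 ± 0.11). Mrps18a, the paralog in the large subunit, did not pass, at 15.5 and 23.5 TPM in mDKO and 25.0 and 42.5 TPM in control embryos (-0.74 ± 0.29, limma adjusted p = 0.0777). Whether the paralogs differ in their change was not tested. Mrps12, the counterpart of the decoding-site protein S12, changed by -1.08 ± 0.16 and was lower. Mrps7 (-0.47 ± 0.12) and Mrps34 (-0.59 ± 0.18) were lower too, but their calls were lost without replicate 1 of mDKO (limma adjusted p = 0.13 and 0.0726) or replicate 2 of control (0.0558 and 0.115), and that of Mrps34 also without replicate 2 of mDKO (0.169).

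In the large subunit, Mrpl20 stood at 56.0 and 67.9 TPM in mDKO and 243 and 266 TPM in control L2C embryos (-2.03 ± 0.14, limma adjusted p = 0.000192). Mrpl28 stood at 50 and 51.6 TPM in mDKO and 177 and 187 TPM in control embryos (-1.82 ± 0.12, limma adjusted p = 0.000189). Mrpl22, whose protein lines the tunnel through which the new chain leaves, stood at 141 and 133 TPM in mDKO and 463 and 467 TPM in control embryos (-1.75 ± 0.11, limma adjusted p = 0.000175). In all 3 the mDKO libraries lay below the control libraries with a gap many times wider than the spread within a group. Mrpl12 was at 77.5 and 85.6 TPM in mDKO and 238 and 252 TPM in control embryos (-1.58 ± 0.12, limma adjusted p = 0.000238), and Mrpl43 at 41.9 and 45.7 TPM in mDKO and 130.4 and 139 TPM in control embryos (-1.60 ± 0.13). Mrpl44, an RNase III-like protein mutated in human mitochondrial disease, was called lower (-0.56 ± 0.16), a call that was lost on leaving out any of the 4 libraries (limma adjusted p = 0.0564 to 0.131). The stalk-base gene Mrpl10 (0.10 ± 0.15), its neighbour in the stalk Mrpl11 (-0.67 ± 0.25), the exit-tunnel gene Mrpl23 (-0.30 ± 0.20), Mrpl41 (-0.14 ± 0.13) and Mrps30 (-0.26 ± 0.13) did not pass the test.

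The 8 members that were higher in mDKO L2C embryos were Mrpl53, Mrps33, Mrps36, Mrpl3, Mrpl24, Mrps9, Mrps21 and Mrps14. Mrpl53, a large-subunit protein specific to mitochondria, stood at 203 and 219.8 TPM in mDKO and 80.3 and 105 TPM in control embryos (1.19 ± 0.15, limma adjusted p = 0.00118). Mrps33 stood at 461 and 481 TPM in mDKO and 221 and 252 TPM in control embryos (0.996 ± 0.11, limma adjusted p = 0.000736). Mrpl3, a protein of the large-subunit core mutated in human mitochondrial disease, stood at 38.6 and 42.3 TPM in mDKO and 24.5 and 20.4 TPM in control embryos (0.83 ± 0.16). The genotypes did not overlap for any of them. Mrpl24 was higher by 0.75 ± 0.13, Mrps36 by 0.83 ± 0.21 and Mrps9 by 0.74 ± 0.20. The call of Mrps36 was lost without replicate 1 of control (limma adjusted p = 0.0561) or replicate 2 of mDKO (0.0550), and that of Mrps9 without replicate 2 of control (0.0754) or replicate 1 of mDKO (0.118).

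**Figure D3:**
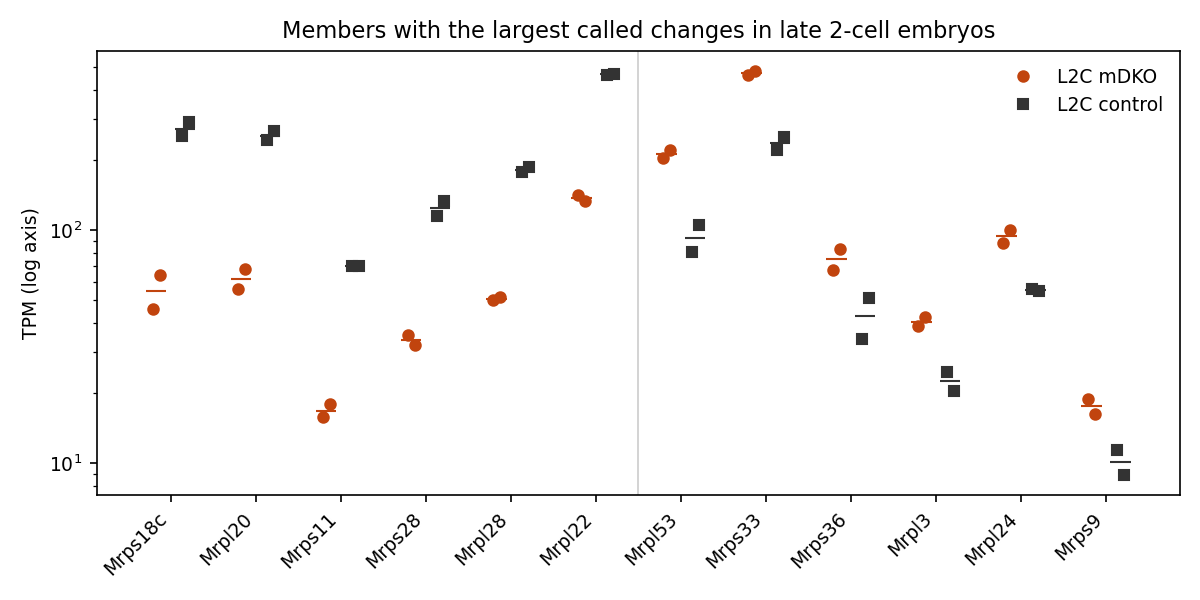
TPM on a log axis of the 6 members with the largest called decrease (left of the line) and the 6 with the largest called increase (right), in each library of mDKO (circles) and control (squares) L2C embryos, with a bar at each group mean. In all 12, picked by the size of their change, the genotypes do not overlap. Among all genes tested, mDKO lay above control without overlap in 35.8% and below it in 37.6%.

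Other RNA moved with the genotype at L2C, and its part in these results was not tested. All 10 oocyte markers were detected in both groups, with a summed level of 7869 to 8068 TPM in mDKO and 3164 to 3512 TPM in control L2C embryos. The 10 early 2-cell markers summed to 2186 to 2682 TPM in mDKO and 693 to 914 TPM in control embryos. Of 13 cumulus and granulosa markers 4 reached 1 TPM in both libraries of either group, and their sum was 102 to 106 TPM in mDKO and 47.2 to 51.0 TPM in control embryos, where Cyp11a1, Inha, Inhba, Fshr, Amh and Ptx3 were at 0 (in mDKO embryos, Ptx3). Of 7 sperm markers 3 reached 1 TPM in mDKO and 4 in control embryos (15.1 to 15.6 TPM and 17.1 to 25.2 TPM in sum, Akap4 at 0 in both groups). Of 7 blood markers 4 did so in either group (101 to 414 TPM in mDKO and 326 to 402 TPM in control embryos, Hbb-bs at 0 in both, Hbb-bt and Ptprc also in control).

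Promoter windows were available from RefSeq (GRCm38.p6) for 68 of the 77 genes, each from 250 bases before to 50 after an annotated start. Both strands were searched for CCGGAAG (ETS factors such as GABP), GCATGCGC (NRF1), AAGATGGC (YY1), CACGTG (E-box) and GGGCGG (SP1), factors known to act at nuclear genes for mitochondrial proteins. None of the 5 motifs contains another. The ETS motif was in 36.8% of member genes, against 12.8% of all 17223 genes with a window. The YY1 motif was in 17.6% of members and 3.63% of all genes, and NRF1 in 11.8% and 4.00%. SP1 was in 34 of the 68 members and in 49.6% of all genes, and the E-box in 7.35% and 9.17%. At L2C the median log2 fold change, mDKO over control, was -0.59 for the 25 members with an ETS match and -0.38 for the 43 without, and -0.77 for the 12 with a YY1 match and -0.34 for the 56 without. It was -0.53 with and -0.42 without an NRF1 match, -0.74 with and -0.46 without an E-box, and -0.45 with and -0.52 without an SP1 match. A match is a description of the window and not of a factor's binding. The windows of the 3 members with the largest decrease at L2C are shown, with those of Mrpl22, which holds both ETS and NRF1 matches, and Mrpl53, the most increased member. These last genes were chosen after their values were seen. All 5 lie on the plus strand, at chr5:100798509-100798808, chr4:155802628-155802927, chr7:78782881-78783180, chr11:58171414-58171713 and chr6:83108858-83109157 in the order listed, and capitals mark matches other than SP1.
Mrps18c: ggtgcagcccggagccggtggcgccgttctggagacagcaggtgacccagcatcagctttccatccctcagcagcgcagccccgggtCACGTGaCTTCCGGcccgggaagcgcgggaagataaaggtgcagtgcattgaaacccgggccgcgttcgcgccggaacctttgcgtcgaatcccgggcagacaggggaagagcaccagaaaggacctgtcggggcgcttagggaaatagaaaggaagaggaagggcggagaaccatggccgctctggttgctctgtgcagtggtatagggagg
Mrpl20: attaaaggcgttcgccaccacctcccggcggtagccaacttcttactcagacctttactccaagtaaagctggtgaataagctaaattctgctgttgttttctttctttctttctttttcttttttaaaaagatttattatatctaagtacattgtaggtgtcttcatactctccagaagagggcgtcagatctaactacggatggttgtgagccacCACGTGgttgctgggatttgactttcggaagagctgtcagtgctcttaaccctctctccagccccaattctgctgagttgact
Mrps11: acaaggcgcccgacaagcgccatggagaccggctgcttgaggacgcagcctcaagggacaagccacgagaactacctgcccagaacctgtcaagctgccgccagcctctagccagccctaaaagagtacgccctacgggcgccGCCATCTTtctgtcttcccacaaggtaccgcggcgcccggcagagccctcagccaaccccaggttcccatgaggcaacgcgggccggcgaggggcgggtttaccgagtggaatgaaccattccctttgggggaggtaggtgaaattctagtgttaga
Mrpl22: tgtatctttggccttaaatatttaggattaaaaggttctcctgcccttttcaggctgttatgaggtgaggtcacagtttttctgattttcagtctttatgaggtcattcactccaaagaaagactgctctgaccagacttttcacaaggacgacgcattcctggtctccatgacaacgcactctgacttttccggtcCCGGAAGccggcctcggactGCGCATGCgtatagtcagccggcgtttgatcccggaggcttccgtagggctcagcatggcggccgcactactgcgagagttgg
Mrpl53: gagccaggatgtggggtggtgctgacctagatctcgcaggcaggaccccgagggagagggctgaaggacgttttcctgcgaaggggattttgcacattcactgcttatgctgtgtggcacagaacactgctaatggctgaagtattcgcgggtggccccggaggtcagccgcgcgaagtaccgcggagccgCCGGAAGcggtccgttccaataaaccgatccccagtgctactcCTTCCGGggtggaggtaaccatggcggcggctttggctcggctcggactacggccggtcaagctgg
The Mrps18c window thus holds an E-box followed closely by an ETS motif on the opposite strand. Mrpl20 holds an E-box, Mrps11 a YY1 motif and Mrpl53 ETS motifs on both strands. The member with the largest decrease and that with the largest increase both held ETS matches.

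Some members also lie next to each other. The members are on 17 chromosomes, with 10 on chromosome 11, 8 on chromosome 17 and 7 on chromosome 6. Mrps11 (chromosome 7, 78783131 to 78792988, plus strand) and Mrpl46 (78775341 to 78783089, minus strand) are transcribed away from each other from starts inside the Mrps11 window shown. Both were lower in mDKO L2C embryos, Mrpl46 at 66.1 and 47.0 TPM in mDKO against 116 and 111 TPM in control embryos (-1.01 ± 0.18). In the GENCODE M21 annotation their exons overlap on opposite strands. In all, 20 members share exonic bases with a protein-coding gene on the other strand, 4 overlap a protein-coding gene on their own strand (Mrpl53 overlaps Gm42688, for instance), and 32 overlap some annotated gene, so the values of these members are less certain.

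The change of the mDKO effect between E2C and L2C was tested as an interaction over the 12 uninjected libraries. The effect was more negative at L2C for 21 of 77 members (27.3%, against 12.5% of all genes tested) and more positive for 7 (9.09%, against 13.2%), with a median of -0.39 beside 0.09 over all genes. In the large subunit 16 of 50 were more negative, and in the small subunit 5 of 26, all 5 with a bacterial counterpart. Mrps28 was at 24.6 and 24.6 TPM in mDKO and 15.7 and 16.0 TPM in control E2C embryos, the reverse of its order at L2C, and the effects differed by -2.45 ± 0.25 (limma adjusted p = 0.000156). Mrps18c was at 67.4 and 77.0 TPM in mDKO and 89.0 and 66.2 TPM in control E2C embryos, values that overlap, and its effects differed by -2.22 ± 0.48 (limma adjusted p = 0.00746). Mrpl20 (-1.82 ± 0.31), Mrpl22 (-1.73 ± 0.39) and Mrpl12 (-1.40 ± 0.30) were among the others. The members with the largest positive difference were Mrpl53 (1.36 ± 0.20, limma adjusted p = 0.000999), Mrpl3 (1.05 ± 0.19) and Mrpl24 (0.98 ± 0.16).

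In early 2-cell embryos without injection the share of members called was near that of all genes. In mDKO E2C embryos 5 of 76 tested members were higher (6.58%, against 5.38% of all 11140 genes) and 8 lower (10.5%, against 8.99%), with a median of -0.08 beside -0.01. The higher members were Mrps36 and the large-subunit genes Mrpl34, Mrpl21, Mrpl32 and Mrpl18, all 4 with a bacterial counterpart. The lower ones were Mrps10, Mrps27, Mrpl36, Mrps2, Mrpl46, Mrps26, Mrpl48 and Mrps23. Mrps10, the counterpart of bacterial S10, was at 4.46 and 8.04 TPM in mDKO and 23.0 and 28.3 TPM in control embryos (-1.92 ± 0.28, limma adjusted p = 0.00368). Mrps27 was at 23.7 and 26.3 TPM in mDKO and 60.7 and 60.6 TPM in control embryos (-1.25 ± 0.17, limma adjusted p = 0.00266). Mrps36 was at 213 and 191 TPM in mDKO and 90.3 and 82.0 TPM in control embryos (1.22 ± 0.14, limma adjusted p = 0.00155). The genotypes did not overlap for these genes. Mrpl36 (-1.06 ± 0.24), Mrps2 (-0.93 ± 0.18), Mrpl46 (-0.90 ± 0.21) and Mrps26 (-0.74 ± 0.18) followed, and on the higher side Mrpl34 (0.83 ± 0.14), Mrpl21 (0.73 ± 0.15), Mrpl32 (0.67 ± 0.14) and Mrpl18 (0.52 ± 0.12).

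These counts depended on single libraries. The share of all genes called is not set beside the leave-out counts, so their swing is not read as a trait of the members. Leaving out mDKO replicate 1 gave 17 calls and leaving out mDKO replicate 2 gave 24, whereas there were 4 without control replicate 1 and 1 without control replicate 2. Among the named E2C calls, Mrps36 alone passed whichever of the 4 libraries was left out. Mrps10 and Mrps27 missed only without control replicate 2 (limma adjusted p = 0.0573 and 0.0516). Markers moved with genotype here too, and their part in the members' values was not tested. The 10 early 2-cell markers summed to 292 to 333 TPM in mDKO and 1284 to 1836 TPM in control E2C embryos, and the 10 oocyte markers to 9894 to 10842 TPM in mDKO and 7150 to 7331 TPM in control, with 9 of the early 2-cell markers lower and 2 of the oocyte markers higher. The 13 cumulus and granulosa markers summed to 196 to 235 TPM in mDKO (3 at 1 TPM or more in both libraries, Amh and Foxl2 at 0) and 112 to 116 TPM in control (3 at 1 TPM or more, Inha and Amh at 0), with Cyp11a1 and Serpine2 called higher. The 7 sperm markers summed to 13.4 to 13.7 TPM in mDKO (1 at 1 TPM or more, Prm1 and Tnp2 at 0) and 37.9 to 52.6 TPM in control (2 at 1 TPM or more, Prm1, Tnp2 and Smcp at 0), with Prm2 called lower. The 7 blood markers summed to 1.75 and 266 TPM in the mDKO libraries (0 at 1 TPM or more in both, Hbb-bs and Hbb-bt at 0) and 24.4 to 87.6 TPM in control (3 at 1 TPM or more, Hbb-bs, Hbb-bt, Hba-a2 and Ptprc at 0).

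At MII, before fertilization, 1 of 74 tested members was higher in mDKO oocytes (1.35%, against 0.845% of all 10765 genes) and 1 was lower (1.35%, against 3.41%), with a median of -0.03 beside -0.05. With the replicate number as a block more members were called, as given in the last section. Mrpl30 was at 11.1 and 13.6 TPM in mDKO and 4.83 and 5.35 TPM in control oocytes (1.13 ± 0.20, limma adjusted p = 0.044). Mrpl10 was at 85.6 and 83.0 TPM in mDKO and 126 and 136 TPM in control oocytes (-0.63 ± 0.09, limma adjusted p = 0.0303). The genotypes did not overlap for either gene, but 0 members passed whichever of the 4 libraries was left out (limma, adjusted p of these genes 0.0559 to 0.182).

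In the injected E2C embryos with mCherry, 31 of 77 members were higher in mDKO than in control (40.3%, against 26.9% of all 10960 genes) and 13 lower (16.9%, against 20.0%). The median was 0.09, beside 0.04 over all genes. The summed TPM of the members was nevertheless lower in mDKO, at 5581 and 5564 against 6593 and 6194 in control embryos. Mrps15, the counterpart of bacterial S15, was at 17.9 and 16.5 TPM in mDKO and 0.741 and 0.437 TPM in control embryos (3.52 ± 0.21, limma adjusted p = 1.08e-05). Mrps24, the counterpart of bacterial S3, was at 17.3 and 18.3 TPM in mDKO and 0.845 and 0.598 TPM in control embryos (3.45 ± 0.33, limma adjusted p = 8.75e-05). Mrps26 was at 19.3 and 17.0 TPM in mDKO and 2.15 and 1.48 TPM in control embryos (2.78 ± 0.28, limma adjusted p = 0.000111). The groups lay far apart for these genes. Mrpl3 (2.701 ± 0.12), Mrps30 (2.02 ± 0.23) and Mrpl12 (1.24 ± 0.16) were higher as well. Without mDKO mCherry replicate 1 the calls numbered 26 in all and without its replicate 2 there were 29, against 44 with every library. On the lower side Mrpl48 was at 393 and 422 TPM in mDKO and 1044 and 1061 TPM in control embryos (-1.37 ± 0.14, limma adjusted p = 0.00011). Mrpl35 (-0.87 ± 0.11) and Mrps33 (-0.60 ± 0.11) were lower too.

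Every E2C group was set against the 10 other E2C libraries, as a description across tables. Both control mCherry libraries lay below all 10 others for 17 members and above them for 1, Mrpl48. The calls above used these libraries, so nothing is read from which members these were. The same counts were not made over all genes, so they are not read as a trait of the members. Some other groups stood apart as often. The Kdm3aWT libraries lay below all others for 19 members and above for 1, the uninjected mDKO libraries below for 3 and above for 16, and the uninjected control libraries below for 2 and above for 21. The Kdm3aHA libraries did so for 3 below and 0 above, and the mDKO mCherry libraries for 2 below and 4 above. In uninjected control E2C embryos Mrps15 was at 6.46 and 11.9 TPM, Mrps24 at 37.2 and 37.4 TPM, Mrps26 at 32.9 and 32.7 TPM and Mrpl3 at 96.5 and 97.3 TPM. Mrpl3 was at 148 and 148 TPM in mDKO mCherry embryos and 20.4 and 23.5 TPM in control mCherry embryos. The sources used here do not say which SMART-Seq kit each E2C library had, the experiments were deposited in separate tables, and the levels across them were not tested. Markers of other cells differed as well between these groups, and their part was not tested. The 13 cumulus and granulosa markers summed to 349 to 358 TPM in mDKO mCherry embryos, with 6 markers at 1 TPM or more in both libraries and Amh, Foxl2 and Ptx3 at 0, and to 77.9 to 85.6 TPM in control mCherry embryos, with 4 at 1 TPM or more and Inha, Inhba, Amh, Foxl2 and Ptx3 at 0. The 7 blood markers summed to 306 to 464 TPM in mDKO, with 2 at 1 TPM or more and Hbb-bs and Hbb-bt at 0, and to 4.02 to 7.51 TPM in control mCherry embryos, with 1 at 1 TPM or more and Hbb-bs, Hbb-bt, Hba-a2, Ptprc and Cd52 at 0.

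The mDKO effects at E2C could be set side by side from libraries that share no sample. Over 76 members their Pearson correlation was 0.173 (Spearman 0.275), against 0.483 over 10424 genes, and 49 of 76 had the same sign (64.5%, against 64.9% of all genes). Mrps27, Mrps23 and Mrpl48 were lower in mDKO embryos in both experiments (3.95% of members, against 5.7% of all genes). Mrps36 and Mrpl34 were higher in both (2.63%, against 3.68%). Mrps36 was at 132 and 136 TPM in mDKO mCherry and 97.5 and 75.1 TPM in control mCherry embryos (0.64 ± 0.18), a call lost without control replicate 2 (limma adjusted p = 0.114), mDKO replicate 1 (0.0652) or mDKO replicate 2 (0.0786). Mrps2 and Mrps26 were called in opposite directions (2.63% of members, against 0.719% of all genes).

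**Figure D4:**
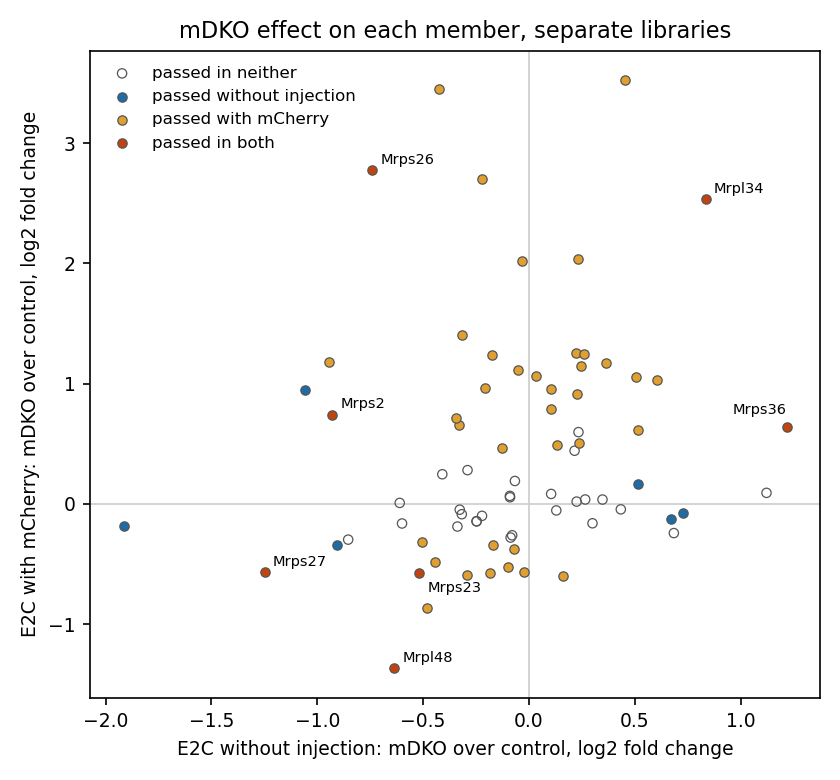
Log2 fold change of each member, mDKO over control, in E2C embryos without injection (horizontal) and with mCherry (vertical), colored by the experiment in which the adjusted p was under 0.05. The 7 members that passed in both are named, and Mrps26 and Mrps2 lie in the quadrant of opposite signs.

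Injection of Kdm3aWT into mDKO E2C embryos went with lower levels of some members and higher levels of none by the limma test. With Kdm3aWT 17 of 77 members were lower than with mCherry (22.1%, against 10.8% of all genes) and 0 were higher (0.949% of all genes), with a median of -0.33 beside -0.19. With Kdm3aHA 11 were lower (14.3%, against 9.29%) and 0 higher (1.54% of all genes), with a median of -0.11 beside -0.08. At an unadjusted limma p under 0.05, in either direction, 39 members passed with Kdm3aWT (3182 of all 10960 genes) and 24 with Kdm3aHA (2885). Of these members 4 were higher with Kdm3aWT and 4 with Kdm3aHA, a direction not counted over all genes. Under size-factor scaling the Kdm3aWT counts were 10 lower and 2 higher, with medians of -0.14 for the members and -0.02 for all genes. Both comparisons share the mDKO mCherry libraries. With Kdm3aWT 46.7% of cytosolic ribosomal protein genes were lower and 0.0% higher. Of nuclear genes of the respiratory chain and ATP synthase 26.3% were lower and 1.32% higher, and of mitochondrial ribosome assembly genes 16.7% and 0.0%. Kdm3a itself, endogenous and injected, was at 4122 and 2315 TPM with Kdm3aWT, 4043 and 3907 TPM with Kdm3aHA and 0.262 and 0.411 TPM with mCherry.

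Markers of other cells and the number of genes detected moved with these injections, and their part in the members' values was not tested. The 7 blood markers summed to 2.54 to 6.45 TPM with Kdm3aWT (1 at 1 TPM or more in both libraries, Hbb-bs, Hbb-bt, Hba-a2 and Ptprc at 0), 0.0611 to 3.13 TPM with Kdm3aHA (0 at 1 TPM or more, Hbb-bs, Hbb-bt and Hba-a2 at 0) and 306 to 464 TPM with mCherry. The 13 cumulus and granulosa markers summed to 249 to 254 TPM with Kdm3aWT (2 at 1 TPM or more, Inha, Amh and Foxl2 at 0), 236 to 250.1 TPM with Kdm3aHA (2 at 1 TPM or more, Inha, Amh, Foxl2 and Ptx3 at 0) and 349 to 358 TPM with mCherry. Of the 7 tested, 4 were lower with either construct. The 10 early 2-cell markers summed to 691 to 795 TPM with Kdm3aWT, 541 to 578 TPM with Kdm3aHA and 409.7 to 450.2 TPM with mCherry, 7 being higher with Kdm3aWT and 2 with Kdm3aHA. Genes at 1 TPM or more numbered 9562 and 9546 with Kdm3aWT, 9587 and 9704 with Kdm3aHA and 10284 and 10157 with mCherry.

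Mrpl52, a large-subunit protein specific to mitochondria, was at 2.09 and 0.707 TPM with Kdm3aWT, 2.36 and 3.10 TPM with Kdm3aHA and 13.9 and 12.3 TPM with mCherry. Against mCherry its log2 fold change was -2.61 ± 0.27 with Kdm3aWT and -1.92 ± 0.27 with Kdm3aHA (limma adjusted p = 0.000897 and 0.003). The mCherry libraries lay above the 4 others. In control mCherry embryos Mrpl52 was at 4.88 and 4.96 TPM and in uninjected mDKO embryos at 7.08 and 5.82 TPM, both below its level in mDKO mCherry embryos. Mrps10 was at 3.29 and 1.66 TPM with Kdm3aWT, 2.22 and 3.40 TPM with Kdm3aHA and 13.8 and 8.47 TPM with mCherry (-1.81 ± 0.29 and -1.65 ± 0.29). Its calls were lost without mCherry replicate 1 (limma adjusted p = 0.0854 and 0.0940), and with Kdm3aHA also without replicate 1 of that group (0.0667). Mrpl33 was lower with Kdm3aWT (-1.53 ± 0.21), a call lost without mCherry replicate 1 (limma adjusted p = 0.0576). Mrpl23 was lower with Kdm3aHA (-1.61 ± 0.24), a call lost without the same library (0.0528).

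The counts leaned on the mDKO mCherry libraries. Without replicate 1 of mCherry 2 members were lower with Kdm3aWT and 3 with Kdm3aHA, and without its replicate 2 there were 7 and 5. Without Kdm3aHA replicate 1 there were 6 with Kdm3aHA. Between the constructs, Kdm3aWT against Kdm3aHA, 1 member was higher (1.3%, against 1.32% of all genes) and 5 were lower (6.49%, against 1.97%), with a median of -0.16 beside -0.10. Mrps30, a large-subunit protein specific to mitochondria, was at 12.5 and 9.66 TPM with Kdm3aWT and 5.49 and 3.98 TPM with Kdm3aHA (1.08 ± 0.23, limma adjusted p = 0.0477). Mrpl47 was at 40.9 and 44.2 TPM with Kdm3aWT and 87.5 and 74.9 TPM with Kdm3aHA (-0.91 ± 0.11, limma adjusted p = 0.0137). The constructs did not overlap for either gene. Of all genes tested 16.9% lay higher with Kdm3aWT without overlap and 35.0% lower. Mrpl21 (-0.64 ± 0.12) and Mrpl1 (-0.59 ± 0.13) were lower with Kdm3aWT, as were Mrpl55 and Mrpl35. The total of 6 calls was 0 without either Kdm3aHA library, 2 without Kdm3aWT replicate 1 and 12 without Kdm3aWT replicate 2. Under size-factor scaling the split was 1 higher and 1 lower, and with a pseudocount of 0.1 it was 0 higher and 5 lower.

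**Figure D5:**
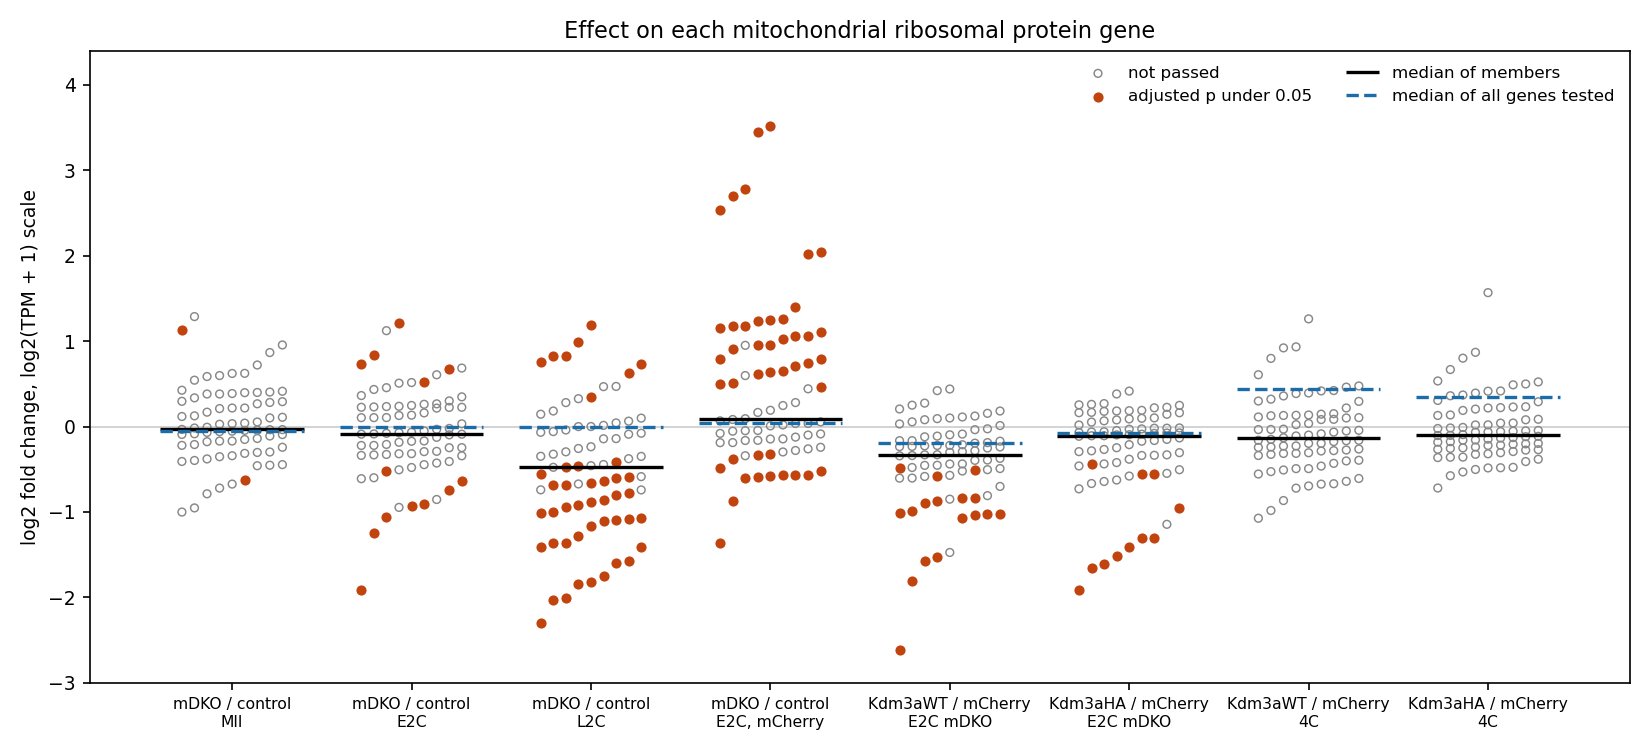
Log2 fold change of each member (points) in 8 comparisons, filled where the adjusted p was under 0.05, with the median of the members (solid bar) and of all genes tested (dashed bar). The members lie below all genes at L2C, and at 4C, where 0 passed, their median is also below that of all genes.

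In 4C embryos 0 of 77 members passed the limma test with Kdm3aWT or with Kdm3aHA, where 0.0% of all 9669 genes did in either comparison. At an unadjusted p under 0.05 there were 2 members with Kdm3aWT (776 genes) and 1 with Kdm3aHA (264 genes). The median standard error of the members was 0.39 here, against 0.15 to 0.27 in the other comparisons. With Kdm3aWT both libraries lay below both mCherry libraries for 30 members (39.0%, against 6.99% of all genes) and above them for 12 (15.6%, against 39.6%). With Kdm3aHA they lay below for 13 (16.9%, against 4.8%) and above for 13 (16.9%, against 21.7%). The median of the members was -0.13 with Kdm3aWT and -0.09 with Kdm3aHA, beside 0.44 and 0.35 over all genes. Under size-factor scaling, which moved the median of all genes to 0.07 and 0.05, the members' medians were -0.61 and -0.48.

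Replicate 2 of the 4C mCherry group stood apart from the other 4C libraries, with 7649 genes at 1 TPM or more against 8754 to 9313 in the 5 others. Mrpl33 was at 465 and 442 TPM with Kdm3aWT, 660.4 and 509 TPM with Kdm3aHA and 642 and 1421 TPM with mCherry, the second mCherry value being the one that stood out (-1.07 ± 0.36 for Kdm3aWT, limma adjusted p = 0.574). Mrps2 was at 23.8 and 37.1 TPM with Kdm3aWT, 38.9 and 35.4 TPM with Kdm3aHA and 14.9 and 9.37 TPM with mCherry. Its log2 fold change was 1.26 ± 0.49 with Kdm3aWT and 1.57 ± 0.49 with Kdm3aHA (limma adjusted p = 0.574 and 0.843). Mrpl10 stood at 26.7 and 24.8 TPM with Kdm3aHA and 18.7 and 9.83 TPM with mCherry (0.87 ± 0.50). Leaving out mCherry replicate 1 gave 4 lower members with Kdm3aWT, and leaving out any other 1 library of the comparison gave 0.

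Genes that work with the mitochondrial ribosome were read at L2C from lists of the same pathway, against 23.3% of all genes lower and 19.1% higher. Of 5 ribosomal proteins named outside the rule, Dap3 was higher in mDKO embryos (14.9 and 14.1 TPM in mDKO and 7.69 and 7.14 TPM in control, 0.88 ± 0.19) and Aurkaip1 (-0.996 ± 0.18) and Ptcd3 (-0.49 ± 0.14) were lower. Of 21 assembly factors 5 were lower (23.8%) and 0 higher, with a median of -0.22, and Mtg2, a GTPase of large-subunit assembly, changed by -1.39 ± 0.39. Of 14 translation factors 2 were lower (14.3%) and 0 higher, among them Tufm, the mitochondrial elongation factor Tu (-1.39 ± 0.45). Of 14 tested mitochondrial aminoacyl-tRNA synthetases 4 were lower (28.6%), with Hars2 at -1.41 ± 0.23, and 2 higher, with Lars2 at 0.79 ± 0.15. The lower shares of these 3 lists were at or near that of all genes, or below it. Of 13 genes of mitochondrial transcription and RNA processing 5 were lower (38.5%), with the RNA polymerase gene Polrmt at -0.91 ± 0.25, and 2 higher, with Pnpt1 at 1.08 ± 0.29. Of 20 import, chaperone and citrate cycle genes 7 were lower (35.0%), with the import receptor Tomm22 at -1.97 ± 0.11, and 6 higher, with the dehydrogenase subunit Sdha at 1.05 ± 0.19.

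Nuclear genes of the respiratory chain and ATP synthase, cytosolic ribosomal protein genes and regulators of mitochondrial gene expression were read in the same way. Of 77 tested respiratory chain and ATP synthase genes encoded in the nucleus 38 were lower in mDKO L2C embryos (49.4%) and 9 higher (11.7%), with a median of -0.43, close to the members' -0.47. The cytochrome oxidase gene Cox7b2 was listed at 0 TPM in mDKO and averaged 11.3 TPM in control embryos, and Cox6a2 changed by 1.35 ± 0.17. Of 75 cytosolic ribosomal protein genes 72 were lower (96.0%) and 0 higher, with a median of -1.25 and Rpl26 at -3.16 ± 0.21. Of 9 tested regulators of mitochondrial gene expression 5 were lower (55.6%) and 0 higher. Gabpa, the DNA-binding subunit of GABP, was at 105 and 101 TPM in mDKO and 230.3 and 143 TPM in control embryos (-0.81 ± 0.21), Yy1 at 40.5 and 53.9 TPM in mDKO and 114 and 111 TPM in control embryos (-1.25 ± 0.16), and Pprc1 at 7.19 and 7.92 TPM in mDKO and 20.4 and 20.98 TPM in control embryos (-1.34 ± 0.18). The genotypes did not overlap for these 3. Nrf1 was at 17.4 and 16.6 TPM in mDKO and 18.4 and 28.0 TPM in control L2C embryos. Tfam was at 1.58 and 2.58 TPM in mDKO and 1.75 and 2.63 TPM in control, values that overlap. A link between these genes and the members was not tested. At E2C without injection the regulators had 0 of 6 called by limma (1 at an unadjusted p under 0.05, Gabpa). Gabpa was at 1.39 and 1.05 TPM in mDKO and 2.71 and 3.80 TPM in control embryos. The mRNAs encoded by the mitochondrial genome were not analysed here.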

How the data were processed

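RNA was sequenced from 26 libraries of mouse MII oocytes and embryos. The deposited values are TPM, which the authors computed with STAR 2.7.10b, RSEM 1.3.1 and the mm10 build among the tools named, per the submitters' processing notes (Bowtie2 2.3.4.1 and SAMtools 1.9 are also named there). The sources used here do not give the role of each tool, the strand setting or the annotation. The depth is unknown, because TPM keeps no read numbers, and counting intervals cannot be given. Per the labels' protocols the kit was TruSeq Stranded mRNA for MII, and either SMART-Seq v4 or else SMART-Seq mRNA LP for E2C and 4C. The sources used here say neither which kit a library had nor the kit at L2C.

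Values were taken as log2(TPM + 1) and tested with limma 3.58.1 (R 4.3.3), with a mean-dependent trend, on symbols at 1 TPM or more in at least 2 libraries of a fit. The 4 libraries of a stage entered each genotype comparison, the 12 uninjected libraries the stage comparisons and the interaction, the 8 injected E2C libraries 1 fit and the 6 4C libraries 1 fit. P-values were adjusted by Benjamini-Hochberg over all genes tested, with 0.05 as the threshold. Fold changes on this scale understate the change of low genes. Tested comparisons were made within a deposited table, and 0 columns of unmatched samples were left out. The shares of TPM, the ranks over the 13 groups and the positions of E2C libraries were set across tables, as description only. The procedure was tested on simulated data.

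Named members are the called ones of at least 5 TPM on average with the largest change in each direction (up to 6 for the E2C and L2C genotype comparisons and up to 3 for the others, and where none was called the 2 largest), members with a fixed role, and the 5 highest and 5 lowest. From each list of related genes the most changed called gene in each direction was named, with a few more chosen after their values were seen (Ptcd3, Gabpa and Yy1 among them). The members and lists were chosen with earlier results of these data known. The alternatives tried were a pseudocount of 0.1, no filter, size-factor scaling, no trend, a replicate block, another set of libraries in the fit, and leaving out each library in turn. Promoter windows are from RefSeq, build GRCm38.p6, and exon overlaps from GENCODE M21.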

Additional observations from a re-analysis of the deposited data

Results flagged for a closer look

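For 28 of 77 members the effect of the maternal knockout differed between L2C and E2C, as tested by the interaction term (limma, adjusted p under 0.05), as it did for 25.7% of all genes tested. Differences are the mDKO effect at L2C minus that at E2C, in log2 units. Among the named members the difference was positive for Mrpl53 (1.36), Mrpl3 (1.05), Mrpl24 (0.98), Mrps33 (0.84) and Mrps21 (0.70). It was negative for Mrps28 (-2.45), Mrps18c (-2.22), Mrpl20 (-1.82), Mrpl22 (-1.73), Mrpl12 (-1.40), Mrps12 (-1.19) and Mrpl44 (-0.69). The difference of Mrpl19 was negative too (-1.29), but its group means lay near the floor, from 0.370 TPM in mDKO to 2.08 TPM in control L2C embryos. Those of Mrps12, Mrps21, Mrpl44 and Mrpl19 missed the threshold when single libraries were left out.

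Mrps2 and Mrps26 moved in opposite directions with the knockout in the E2C experiments. They are 2.63% of the 76 members tested in both, where 0.719% of 10424 genes were called in opposite directions. With mCherry Mrps2 changed by 0.74 and Mrps26 by 2.78 in mDKO embryos, and without injection by -0.93 and -0.74. Every mDKO library lay on the stated side of its controls, and the difference between the experiments was not tested.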

How the results depend on the processing

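Of 127 counts of called members under alternatives, 98 stayed within 1.5 times the reported count and 29 did not. No named member changed direction while called. At MII the 2 calls became 0 without the filter and 0 without the trend, and 4 with all 12 libraries in the fit. At E2C the 13 calls became 4 without the filter and 8 without the trend. Between Kdm3aWT and Kdm3aHA the 6 calls became 1 without the filter, 2 with size-factor scaling and 0 without the trend. The causes were not tested.

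With the replicate number as a block the calls numbered 16 at MII and 22 at E2C, and the other counts stayed within 1.5 times. Same-numbered libraries deviated together with correlations of 0.359 at MII, -0.0187 at E2C, 0.0502 at L2C and -0.026 to 0.187 among the injected groups. No label says that a number marks a shared source, and 2 pairs a comparison are too few to tell from the data. At MII the blood marker sums in replicates 1 and 2 were 5.02 and 14.1 TPM in mDKO and 4.64 and 13.7 TPM in control. Of the 7 markers 1 reached 1 TPM in both libraries of either group. Whether the MII pools were paired was not tested.

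Leaving out 1 library at a time gave 0 to 0 calls at MII, 1 to 24 at E2C, 36 to 43 at L2C, 26 to 41 for mDKO against control with mCherry, 2 to 17 for Kdm3aWT and 3 to 11 for Kdm3aHA against mCherry at E2C, 0 to 12 for Kdm3aWT against Kdm3aHA, and 0 to 4 and 0 to 0 for Kdm3aWT and Kdm3aHA at 4C. The interaction gave 19 to 25, and the stage changes 64 to 66 from MII to E2C, 57 to 60 from E2C to L2C in control and 47 to 51 in mDKO embryos. A group left with 1 library was taken to vary like the others. For none of the leave-out counts is the share of all genes given, so they are not read as a trait of the members. With 2 libraries a group and no depth, small differences were not detectable.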
